A study of Mus musculus with 13 samples.

Results

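The genes described here are 42 genes of actin assembly and cell motility, chosen by name: the 2 cytoplasmic actins, the Arp2/3 complex and its activators, formins and other elongation factors, cofilins and profilins, capping and severing proteins, crosslinkers, tropomyosins, nonmuscle myosin chains, focal adhesion scaffolds and the proteins that tie actin to the membrane. Members were found through the gene name of each probe on the array or an older synonym (Diaph1 is also named Diap1, and Ezr Vil2); Actg1 alone was found through the description of its transcript. All 42 were on the array, with 76 probes, and all 42 were among the 18266 genes tested. Every one of them was well above background on all 12 arrays, and none was saturated.

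The study profiled RNA of mouse mammary organoids, which are epithelial fragments of the gland, on Agilent 1-colour arrays, to compare the gene expression of normal and tumor epithelium in a basement membrane gel and in collagen I. Normal organoids came from wild-type FVB mice, and tumor organoids from the largest tumor of MMTV-PyMT mice, in which the promoter of mouse mammary tumor virus drives the polyoma middle T oncogene in the mammary epithelium; the mice were 12 to 16 weeks old, when per the labels the carcinomas are poorly differentiated, and no age is given for the normal mice. All organoids were grown with 2.5 nM of the growth factor FGF2 and collected at day 4, either in Matrigel, a laminin-rich basement membrane extract, or in a gel of rat tail collagen I at 3 mg per ml. Each of the 4 groups held 3 mice. Normal Matrigel cultures came from mice lettered A, B and D, and every other group from mice lettered A, B and C. Within a tissue, one letter marks one animal cultured in both gels, whereas a normal mouse and a tumor mouse of one letter are separate animals.

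Actin monomers polymerise into filaments that push the cell membrane outward or, bundled and pulled by myosin, contract it. The Arp2/3 complex starts new branches on existing filaments when WASP and WAVE proteins activate it, formins start and lengthen unbranched filaments, cofilin severs and turns them over, and capping proteins stop their growth. Focal adhesion proteins couple filaments to integrins bound to the matrix outside the cell, and in the mammary gland the myoepithelial cells around the luminal cells carry a smooth muscle type of contractile apparatus.

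A level below is log2 of the processed signal minus the 75th percentile of that array on the same log2 scale. Levels of different probes were compared only to say which probe was brighter, not as amounts of RNA. For lists of cell type markers a summed level is also given, which is log2 of the sum of the genes' unlogged levels. The brightest probes of a list weigh most in it. Values are listed by mouse, A, B and D for normal organoids in Matrigel and A, B and C for the other groups. A difference of levels is given in log2 with its standard error (SE), and a gene is called when its p-value from limma, adjusted by Benjamini-Hochberg over the 18266 genes, is under 0.05. Comparisons that use the same group share its arrays and are not independent of each other.

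Tumor organoids in Matrigel stood apart in signal. Their 75th percentile was 384 to 570 in units of processed signal, against 672 to 1218 in normal organoids and 690 to 812 in tumor organoids in collagen I, and 56.6% to 58.6% of their probes were well above background against 62.1% to 71.4% in the other groups. Differences that use tumor Matrigel moved with brightness: in tumor minus normal organoids in Matrigel the median over all genes with a mean level above 4 was 0.72, and over genes with a mean level below 0 it was -0.28. Under quantile normalization, which gives every array the same distribution of signals, these medians were -0.01 and 0.01. Of the 42 members, 17 lay in the bright class, which held 1297 of the 18266 genes; their median difference was 0.54, and -0.08 under quantile normalization. The spike-in control probes had a higher median relative to the 75th percentile in tumor Matrigel (-0.32 to 0.37 in log2) than in the 9 other arrays (-2.28 to -1.47). The part of signal strength in the results that follow was not tested beyond these rescalings. Each member's call that was lost under quantile normalization is given with both values.

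In normal organoids, no member was called between collagen I and Matrigel (0 of 42; 0.0438% of all genes tested were called, 0.0383% higher and 0.00547% lower), differences ran from -0.43 to 0.51 with a median of 0.10 against -0.01 for all genes, and the lowest adjusted p from limma was 0.428. Wasl (0.51) and Vasp (0.42) had an unadjusted p under 0.05 in limma. The share of all genes at that threshold is not given, so these are not read as a result.

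In tumor organoids, 9 of the 42 members (21.4%) differed between the gels, a share below the 27.9% of all genes tested. Those higher in collagen I numbered 7: the Arp2/3 subunits Actr2 and Arpc5, the cofilin Cfl2, the formin Diaph2, the tropomyosin Tpm1, the adhesion protein Vcl and the membrane linker Rdx. Those lower were the elongation factor Evl and the adhesion protein Tln1. Of all genes tested, 15.7% were higher and 12.2% lower. The median difference of the 42 members was 0.05, and of all genes -0.05. Under quantile normalization 13 members were called, 12 of them higher, and the median was 0.30.

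Tumor and normal organoids in Matrigel differed at 22 of the 42 members (52.4%), close to the 51.8% of all genes tested. There were 15 higher in tumor organoids and 7 lower (26.0% and 25.8% of all genes), and the members' median was 0.34 against 0.09 for all genes. This split turned with the scaling: under quantile normalization 19 members were called (6 higher, 13 lower), the median fell to -0.07, and the values deposited by the authors gave the same 6 and 13. In collagen I, 2 of the 42 members (4.76%; 8.66% of all genes) were called, Zyx higher (3.66% of all genes) and Myl9 lower in tumor organoids.

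**Figure D1:**
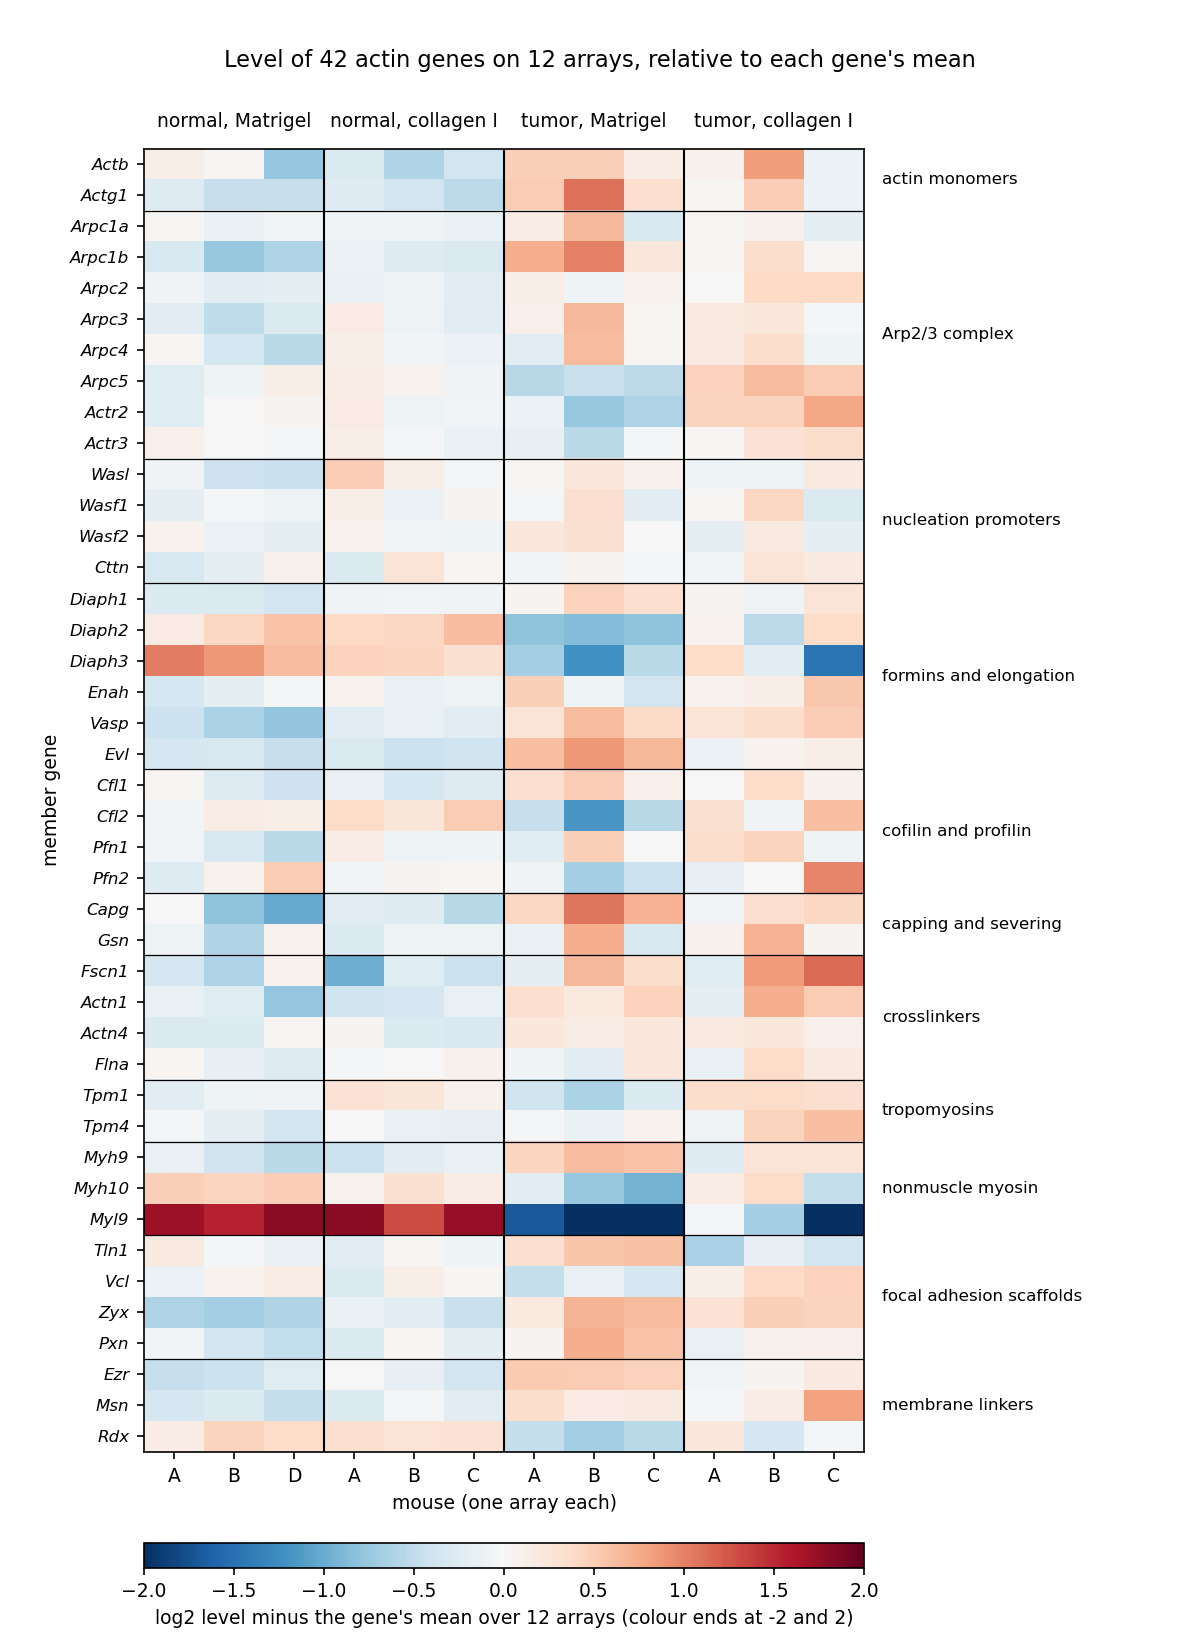
Level of each of the 42 members (rows, grouped by role) on each of the 12 arrays (columns, by group and mouse), as the log2 level minus that gene's mean over the 12 arrays; red is above and blue below the mean, and the colour scale ends at -2 and 2. The 6 normal arrays resemble each other in most rows, and Myl9 is far lower on the tumor arrays. Arpc5 and Actr2 are highest in tumor collagen I, and Arpc5 is lowest in tumor Matrigel.

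Of the 42 members, 38 had a promoter window in the RefSeq table of build GRCm38.p6 (250 bases before to 50 after the start site). The windows were searched on both strands for the CArG box, the element that serum response factor binds and through which many actin and muscle genes respond to the pool of actin monomers. The box was found in the windows of 4 members, Actg1, Arpc4, Myl9 and Vcl, which is 10.5% of the 38, against 1.81% of the 27025 genes in the table. The stretches below show the box in capitals with up to 60 bases on each side, 5′ to 3′ on the strand of the gene; they are shown as the members that hold this element.
Actg1, chr11:120348516-120348645, minus strand: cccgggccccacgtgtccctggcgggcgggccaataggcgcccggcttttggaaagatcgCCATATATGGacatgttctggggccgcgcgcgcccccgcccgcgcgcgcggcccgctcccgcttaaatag
Arpc4, chr6:113377863-113377932, plus strand: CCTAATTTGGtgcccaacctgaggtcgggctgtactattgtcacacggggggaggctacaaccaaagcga
Myl9, chr2:156775243-156775372, plus strand: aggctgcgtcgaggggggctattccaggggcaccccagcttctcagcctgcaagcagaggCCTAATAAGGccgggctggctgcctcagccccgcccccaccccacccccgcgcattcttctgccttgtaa
Vcl, chr14:20929148-20929240, plus strand: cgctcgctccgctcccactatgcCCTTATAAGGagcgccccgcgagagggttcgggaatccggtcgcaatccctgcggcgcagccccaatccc
The box began 90 bases before the start site in Actg1, 250 in Arpc4, 161 in Myl9 and 227 in Vcl. Between tumor and normal organoids in Matrigel, Myl9 was lower (-4.02), and Actg1 was higher (1.03) but lost under quantile normalization (0.07) and in the authors' values (-0.01). Vcl was called between the gels in tumor organoids (0.65), and, lower in tumor than in normal Matrigel, under quantile normalization (-0.60), in the authors' values (-0.50) and with normexp (-0.61); Arpc4 was called in no comparison. A match of letters is a description of the window and was not tested as a binding site.

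Of the cytoplasmic actins, Actg1 (gamma-actin) was called and Actb (beta-actin) was not. The levels of Actg1 were 7.11, 6.91 and 6.91 in normal Matrigel, 7.11, 6.99 and 6.86 in normal collagen I, 7.88, 8.47 and 7.70 in tumor Matrigel and 7.40, 7.87 and 7.26 in tumor collagen I. All 3 tumor Matrigel arrays lay above all 6 normal arrays, and so did the 3 tumor collagen I arrays, which overlapped with tumor Matrigel. Tumor minus normal in Matrigel was 1.03 (adjusted p = 0.0039, limma), but 0.07 under quantile normalization and -0.01 in the authors' values. Actb ranged from 4.22 to 5.81 over the 12 arrays; a second, dimmer Actb probe was called in collagen I (1.00, adjusted p = 0.0211, adjusted over all 26597 probes kept, as for every further probe below). The actin genes are near-identical over long stretches, so how far each probe separates them is uncertain.

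Within the Arp2/3 complex, 2 of the 8 subunits were called between the gels in tumor organoids, a share near the 27.9% of all genes. Actr2, which forms with Actr3 the actin-like pair that seeds a new filament, had levels of 3.18, 3.44 and 3.49 in normal Matrigel, 3.60, 3.33 and 3.38 in normal collagen I, 3.32, 2.67 and 2.82 in tumor Matrigel and 3.88, 3.87 and 4.20 in tumor collagen I. Arpc5, the smallest subunit, had levels of 2.21, 2.37 and 2.58 in normal Matrigel, 2.61, 2.53 and 2.39 in normal collagen I, 1.90, 2.01 and 1.94 in tumor Matrigel and 2.92, 3.09 and 2.97 in tumor collagen I. For both genes all 3 tumor collagen I arrays lay above the 9 other arrays, and for Arpc5 the 3 tumor Matrigel arrays lay below them.

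Actr2 was higher in collagen I than in Matrigel by 1.05 ± 0.20 (SE) in tumor organoids (2.07-fold, adjusted p = 0.0055, limma), and Arpc5 by 1.04 ± 0.15 (SE) (2.06-fold, adjusted p = 0.00204). In normal organoids the same differences were 0.06 and 0.12. They were the 2 members of the 9 that were called under all 14 alternative settings and with each of the 12 arrays left out. On the slide that held tumor arrays of both gels, the difference was 1.06 for Actr2 and 0.98 for Arpc5. It compares single arrays of different mice, collagen I mouse A and Matrigel mouse C, which are also part of the test above. Against normal Matrigel, Arpc5 was lower in tumor Matrigel (-0.44, adjusted p = 0.033) and Actr2 was -0.44 (adjusted p = 0.0919); under quantile normalization Actr2 was called lower there too (-0.87).

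The other 6 subunits did not pass between gels in tumor organoids, with differences from -0.52 (Arpc1b) to 0.47 (Actr3, adjusted p = 0.0732, and 0.0436 with mouse as a random block). Under quantile normalization Actr3 (0.83) and Arpc2 (0.51) were called higher in collagen I as well, as they were in the authors' values (0.86 and 0.55). Arpc1b, which exists beside the related Arpc1a as 1 of 2 alternative subunits, had levels of 6.56, 6.10 and 6.25 in normal Matrigel, 6.75, 6.61 and 6.58 in normal collagen I, 7.59, 7.88 and 7.09 in tumor Matrigel and 6.89, 7.21 and 6.89 in tumor collagen I. Its tumor Matrigel arrays lay above all 6 normal arrays and overlapped with tumor collagen I. It was higher by 1.22 ± 0.22 (SE) in tumor than in normal Matrigel (adjusted p = 0.00132, limma), but by 0.30 under quantile normalization and 0.13 in the authors' values, which did not pass.

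Arpc3 had levels of 4.43, 4.16 and 4.38 in normal Matrigel, 4.83, 4.57 and 4.45 in normal collagen I, 4.77, 5.31 and 4.68 in tumor Matrigel and 4.84, 4.89 and 4.64 in tumor collagen I. The tumor Matrigel arrays lay above the normal Matrigel arrays and overlapped with both collagen I groups. It was called higher in tumor Matrigel (0.60, adjusted p = 0.0273), and its sign turned under quantile normalization (-0.02). Arpc1a, Arpc2, Arpc4 and Actr3 passed in no comparison of the main analysis. Actr3, the brightest of them, ranged from 4.38 to 5.27. It was called lower in tumor than in normal Matrigel under quantile normalization (-0.88) and in the authors' values (-0.86).

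None of the 4 activators of the complex was called in any comparison. Wasf2, the WAVE protein with the brightest probe, ranged from 4.53 to 5.03, the narrowest range of all members (0.50). Wasl (N-WASP), Wasf1 and Cttn (cortactin, which stabilises branches) had differences between -0.21 and 0.51 in the 4 pairwise comparisons. The other 2 Wasf2 probes were called higher in tumor than in normal Matrigel (0.60, adjusted p = 0.0157 and 0.69, adjusted p = 0.0434), whereas the brightest probe gave 0.25 (adjusted p = 0.224). Under quantile normalization neither of those probes passed (-0.02 and 0.62), and the brightest was called lower (-0.36).

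The formins and elongation factors split in tumor organoids: Diaph2 and Diaph3 were lower and Diaph1, Vasp and Evl higher than in normal organoids in Matrigel. Diaph2, a formin that lengthens unbranched filaments, had levels of 0.96, 1.23 and 1.38 in normal Matrigel, 1.21, 1.22 and 1.42 in normal collagen I, 0.00, -0.06 and 0.00 in tumor Matrigel and 0.87, 0.28 and 1.17 in tumor collagen I. The 3 tumor Matrigel arrays lay close together and below the 9 others. Tumor minus normal in Matrigel was -1.21 ± 0.22 (SE) (adjusted p = 0.00142, limma) and was called under all 13 alternatives. Its 2 further, dimmer probes gave -1.38 and -1.48, but 0.47 and -0.26 with normexp background correction.

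In tumor organoids Diaph2 was higher in collagen I by 0.79 ± 0.22 (SE) (adjusted p = 0.0235), a call that was lost without tumor Matrigel mouse B (0.77, adjusted p = 0.0679) or without tumor collagen I mouse A (0.74, adjusted p = 0.0773) or C (0.60, adjusted p = 0.0728), and with mouse as a fixed block (adjusted p = 0.0518). Diaph3 had levels of -1.79, -1.96 and -2.21 in normal Matrigel, -2.36, -2.39 and -2.52 in normal collagen I, -3.50, -4.03 and -3.36 in tumor Matrigel and -2.46, -3.03 and -4.28 in tumor collagen I. Its 6 tumor arrays lay below all 3 normal Matrigel arrays and the spread in tumor collagen I was wide, with mouse C lowest. The difference in Matrigel was -1.64 ± 0.38 (SE) (adjusted p = 0.00493), but -0.14 with normexp background correction; this probe was the dimmest of the members.

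Diaph1, a formin that nucleates and lengthens unbranched filaments, had levels of 2.09, 2.08 and 1.98 in normal Matrigel, 2.29, 2.31 and 2.30 in normal collagen I, 2.41, 2.83 and 2.70 in tumor Matrigel and 2.42, 2.30 and 2.64 in tumor collagen I. The 3 tumor Matrigel arrays lay above all 6 normal arrays. Diaph1 was called higher in tumor Matrigel (0.60, adjusted p = 0.0102), with 0.26 under quantile normalization, which did not pass. Its second probe did not pass either (0.20, adjusted p = 0.401).

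Vasp and Evl belong to the Ena/VASP family, whose members keep the growing end of a filament open for new monomers. Vasp had levels of 2.03, 1.83 and 1.67 in normal Matrigel, 2.24, 2.32 and 2.24 in normal collagen I, 2.72, 3.10 and 2.84 in tumor Matrigel and 2.74, 2.82 and 2.95 in tumor collagen I. Evl had levels of 3.09, 3.11 and 2.97 in normal Matrigel, 3.14, 3.01 and 3.03 in normal collagen I, 4.03, 4.30 and 4.09 in tumor Matrigel and 3.31, 3.50 and 3.57 in tumor collagen I. For both genes every tumor array lay above every normal array. In Matrigel the difference was 1.04 for Vasp (adjusted p = 6.18e-04) and 1.08 ± 0.15 (SE) for Evl (adjusted p = 3.29e-04), and both were called under all 13 alternatives, at 0.69 and 0.59 with quantile normalization. In collagen I they were 0.57 (adjusted p = 0.0553) and 0.40 (adjusted p = 0.13), neither of which passed.

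Evl was also lower in collagen I than in Matrigel within tumor organoids, with a difference of -0.68 ± 0.15 (SE) (adjusted p = 0.00862); the value was -0.37 under quantile normalization and -0.32 in the authors' values, and neither passed. The third of the family, Enah, was not called with its brightest probe, which ranged from 0.93 to 1.83. A second Enah probe was 0.22, 0.15 and 0.48 in normal Matrigel and 1.49, 1.79 and 0.97 in tumor Matrigel, a difference of 1.13 ± 0.21 (SE; adjusted p = 0.00159) that was called under the 3 other scalings too (0.84 to 1.00). The brightest probe gave 0.20 ± 0.23 for the same comparison, so the Enah probes disagreed.

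**Figure D2:**
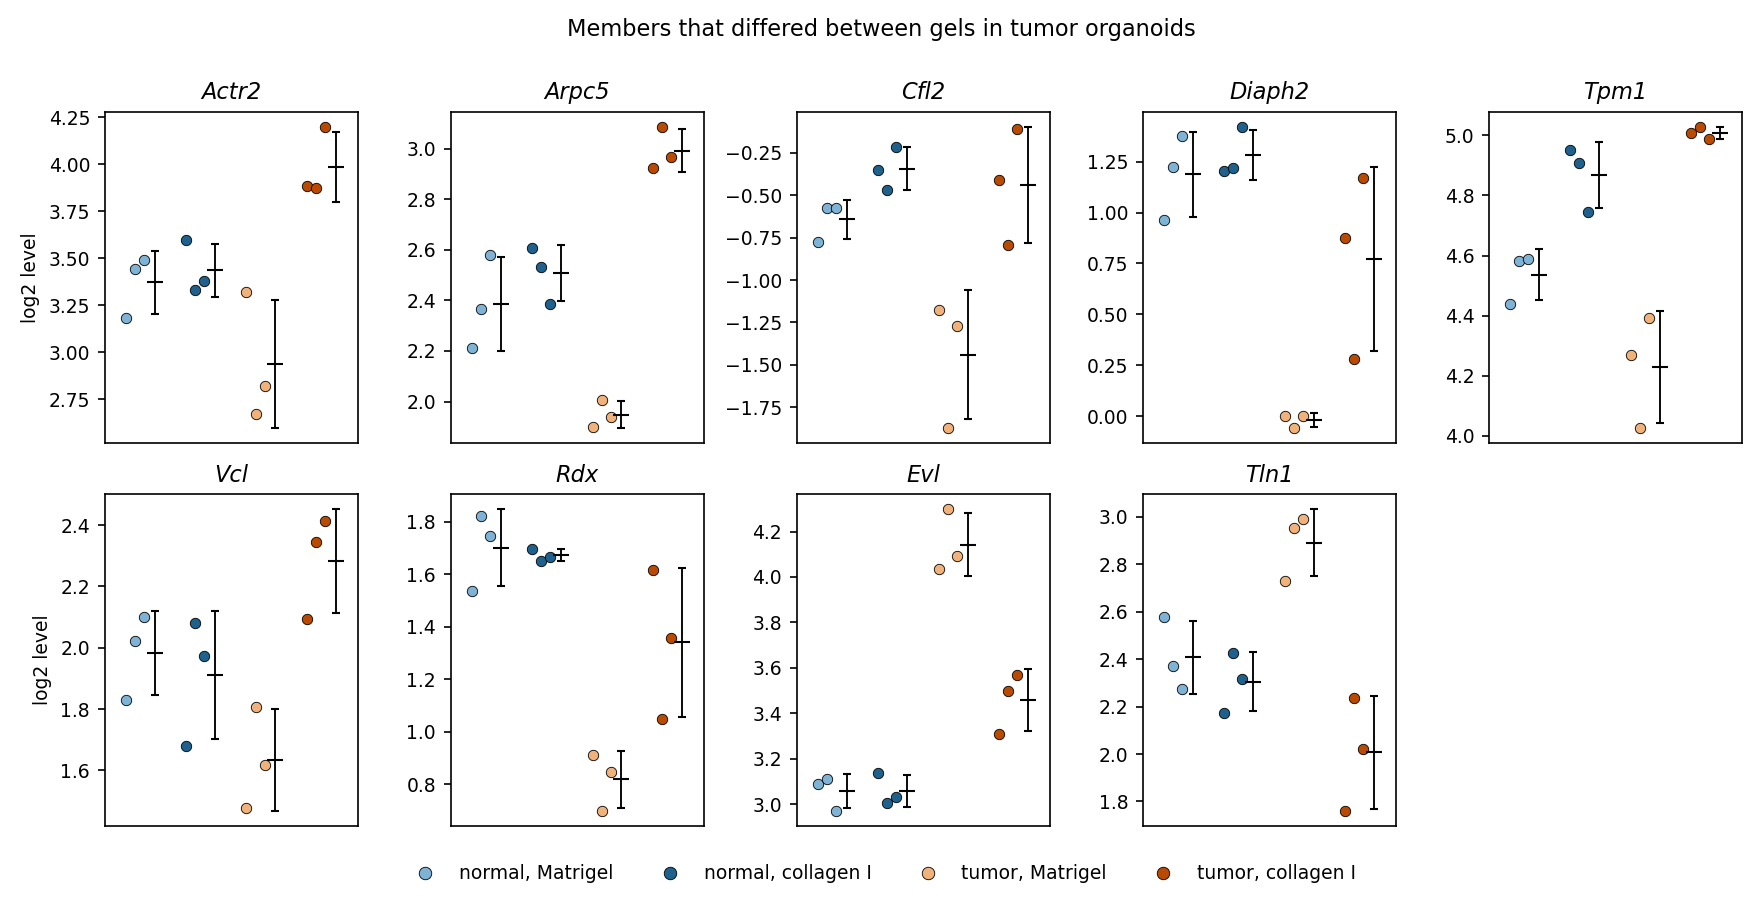
Log2 levels (vertical axes, a separate scale for each gene) of the 9 members called between gels in tumor organoids; points are the 3 mice of each group and the bar beside them is the mean ± SD. Arpc5 and Actr2 are higher in tumor collagen I than on the 9 other arrays, and Evl and Tln1 are highest in tumor Matrigel.

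Relative to the 75th percentile, the 2 cofilins went opposite ways in tumor Matrigel; under quantile normalization only Cfl2 passed. Cfl1, the cofilin of non-muscle cells, had levels of 4.62, 4.33 and 4.17 in normal Matrigel, 4.44, 4.24 and 4.33 in normal collagen I, 4.93, 5.10 and 4.69 in tumor Matrigel and 4.60, 4.96 and 4.68 in tumor collagen I. The tumor Matrigel arrays of Cfl1 lay above all 6 normal arrays. Cfl1 was called higher in tumor Matrigel (0.54, adjusted p = 0.0304), with a sign that turned under quantile normalization (-0.07). Cfl2, the muscle form, had levels of -0.78, -0.57 and -0.58 in normal Matrigel, -0.35, -0.47 and -0.21 in normal collagen I, -1.17, -1.87 and -1.27 in tumor Matrigel and -0.41, -0.79 and -0.11 in tumor collagen I. The 3 tumor Matrigel arrays of Cfl2 lay below the 9 others.

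Cfl2 was higher in collagen I than in Matrigel in tumor organoids by 1.00 ± 0.23 (SE) (2.01-fold, adjusted p = 0.0105, limma), and lower in tumor than in normal Matrigel (-0.80, adjusted p = 0.0138). Normexp background correction gave 0.51 and -0.34 for these, and neither passed. The profilins Pfn1 and Pfn2, which load monomers onto growing ends, passed in no comparison; Pfn1, the brighter, ranged from 2.56 to 3.59.

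Capg, a protein of the gelsolin family that caps filaments, was higher in tumor Matrigel. Its levels were 4.87, 4.06 and 3.86 in normal Matrigel, 4.64, 4.60 and 4.31 in normal collagen I, 5.29, 5.93 and 5.57 in tumor Matrigel and 4.82, 5.18 and 5.28 in tumor collagen I. All 3 tumor Matrigel arrays lay above the 6 normal arrays. Tumor minus normal in Matrigel was 1.33 ± 0.27 (SE) (2.52-fold, adjusted p = 0.00266, limma), and the call held under all 13 alternatives and with each array left out. In collagen I the difference was 0.58 (adjusted p = 0.239). Gsn (gelsolin, which severs and caps) was not called and ranged from 4.44 to 5.76.

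Of the 4 crosslinkers, Actn1 alone was called. Actn1 (alpha-actinin, which crosslinks filaments at adhesions) had levels of 0.74, 0.65 and 0.11 in normal Matrigel, 0.50, 0.55 and 0.74 in normal collagen I, 1.23, 1.09 and 1.35 in tumor Matrigel and 0.70, 1.62 and 1.40 in tumor collagen I. The tumor Matrigel arrays lay above all 6 normal arrays. Actn1 was higher there by 0.72 (adjusted p = 0.0321), with 0.62 under quantile normalization, which did not pass. Flna (filamin), Actn4 and Fscn1 (fascin, the bundler of filopodia) passed nowhere in the main analysis. Under quantile normalization Flna was called lower in tumor than in normal Matrigel (-0.67), as in the authors' values (-0.62). It was also called higher in collagen I within tumor organoids under quantile normalization (0.65). Flna, the brightest, ranged from 6.06 to 6.68, whereas Fscn1 had the widest range of the 17 members that were called nowhere (2.11), with -0.74, 0.35 and 0.63 in tumor collagen I against -1.48, -0.75 and -0.94 in normal collagen I (1.13 ± 0.37 (SE), adjusted p = 0.0882).

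Tropomyosins wind along filaments and regulate their contact with myosin and cofilin, and Tpm1 makes many isoforms. With its brightest probe, Tpm1 had levels of 4.44, 4.58 and 4.59 in normal Matrigel, 4.95, 4.91 and 4.74 in normal collagen I, 4.27, 4.03 and 4.39 in tumor Matrigel and 5.01, 5.03 and 4.99 in tumor collagen I. All 3 tumor collagen I arrays lay close together and above the 9 others. Collagen I minus Matrigel in tumor organoids was 0.78 ± 0.15 (SE) (adjusted p = 0.00566, limma), and 1.12 under quantile normalization.

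The 3 Tpm1 probes disagreed. A second probe to the same transcript record gave 0.37 between gels in tumor organoids (adjusted p = 0.0998). The third probe, to a different transcript record, read -1.07, -1.13 and -1.03 in normal Matrigel, -1.13, -0.79 and -1.07 in normal collagen I, 0.74, 0.86 and 0.51 in tumor Matrigel and -0.23, 0.50 and 0.80 in tumor collagen I. Every tumor array lay above every normal array with this probe, by 1.78 ± 0.24 (SE; adjusted p = 3.28e-04) in Matrigel and 1.35 ± 0.24 (adjusted p = 0.00665) in collagen I, and it was called in both gels under the 3 other scalings (1.18 to 1.79). The brightest probe gave -0.31 and 0.14 for the same comparisons, of which the first was called lower under quantile normalization (-0.85). Tpm4 passed nowhere in the main analysis and ranged from 5.11 to 6.09. Within tumor organoids Tpm4 was called higher in collagen I under quantile normalization (0.78) and in the authors' values (0.80).

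The widest difference of all members was in the myosin group. Myl9, the regulatory light chain of smooth muscle and nonmuscle myosin, had levels of 5.79, 5.65 and 5.91 in normal Matrigel, 5.90, 5.40 and 5.84 in normal collagen I, 2.42, 1.11 and 1.75 in tumor Matrigel and 4.07, 3.44 and 1.91 in tumor collagen I. The 6 normal arrays lay close together and the 6 tumor arrays all lay below them, between 1.11 and 4.07. Tumor minus normal was -4.02 ± 0.48 (SE) in Matrigel (16.2-fold lower, adjusted p = 1.78e-04, limma) and -2.57 ± 0.48 (SE) in collagen I (5.94-fold lower, adjusted p = 0.00781). Both calls held under all 13 alternatives and with each of the 12 arrays left out.

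Within tumor organoids Myl9 was 1.38 ± 0.48 (SE) between collagen I and Matrigel (adjusted p = 0.0549), with overlapping groups; it was called under 7 of the 14 alternatives, among them mouse as a random block (adjusted p = 0.0292), and without tumor collagen I mouse C (2.00, adjusted p = 0.00733) or tumor Matrigel mouse A (1.71, adjusted p = 0.0396). In bulk RNA, fewer cells of a type and less RNA per cell cannot be told apart.

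Of the 10 genes of the myoepithelial list, 5 moved with Myl9 and were lower in tumor organoids in both gels: Myh11 (smooth muscle myosin heavy chain), Cnn1 (calponin), Mylk (the kinase of the light chain), Tagln and Oxtr. The differences in Matrigel were -7.05, -5.48, -4.13 and -2.68 for the first 4, and Oxtr, not well above background on any tumor Matrigel array, was at least 19.1-fold lower (against the lowest signal well above background). Of the other 5, Trp63 was higher in both gels (0.95 and 1.20), and Krt17 (2.13 in Matrigel and 2.50 in collagen I), Acta2 (-0.04 and -0.25), Krt14 (1.08 and 1.57) and Krt5 (-0.72 and -0.12) did not pass. The 2 brightest genes of the list, the basal keratins Krt14 and Krt5, had mean levels of 6.16 and 7.02 in normal Matrigel and 7.25 and 6.30 in tumor Matrigel. The summed level of the whole list, in which these bright keratins weigh most, ranged from 7.44 to 9.13 in normal Matrigel and 8.33 to 8.40 in normal collagen I. It ranged from 7.28 to 8.97 in tumor Matrigel and 8.20 to 9.77 in tumor collagen I. The part of cell composition in the Myl9 difference was not tested.

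Myh9 and Myh10, the heavy chains of nonmuscle myosin IIA and IIB, went opposite ways in Matrigel relative to the 75th percentile, a contrast that under quantile normalization rested on Myh10 alone. Myh9 had levels of 6.58, 6.33 and 6.20 in normal Matrigel, 6.30, 6.53 and 6.59 in normal collagen I, 7.16, 7.35 and 7.30 in tumor Matrigel and 6.47, 7.01 and 6.98 in tumor collagen I. Myh10 had levels of -0.69, -0.73 and -0.67 in normal Matrigel, -1.10, -0.86 and -1.02 in normal collagen I, -1.39, -1.92 and -2.11 in tumor Matrigel and -1.01, -0.79 and -1.64 in tumor collagen I. The tumor Matrigel arrays of Myh9 lay above the 9 others, and those of Myh10 below all 6 normal arrays. The difference of Myh10 was -1.11 ± 0.24 (SE) in Matrigel (adjusted p = 0.00369, limma), and -0.39 with normexp, which did not pass. A second Myh10 probe gave -0.57 (adjusted p = 0.0544), which did not pass either. Between the gels in tumor organoids Myh10 was 0.66 (adjusted p = 0.0656), and was called with mouse as a random block (adjusted p = 0.0343). Myh9 was 0.90 (adjusted p = 0.00304), but -0.04 under quantile normalization, -0.12 in the authors' values and -0.03 on its second, dimmer probe.

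**Figure D3:**
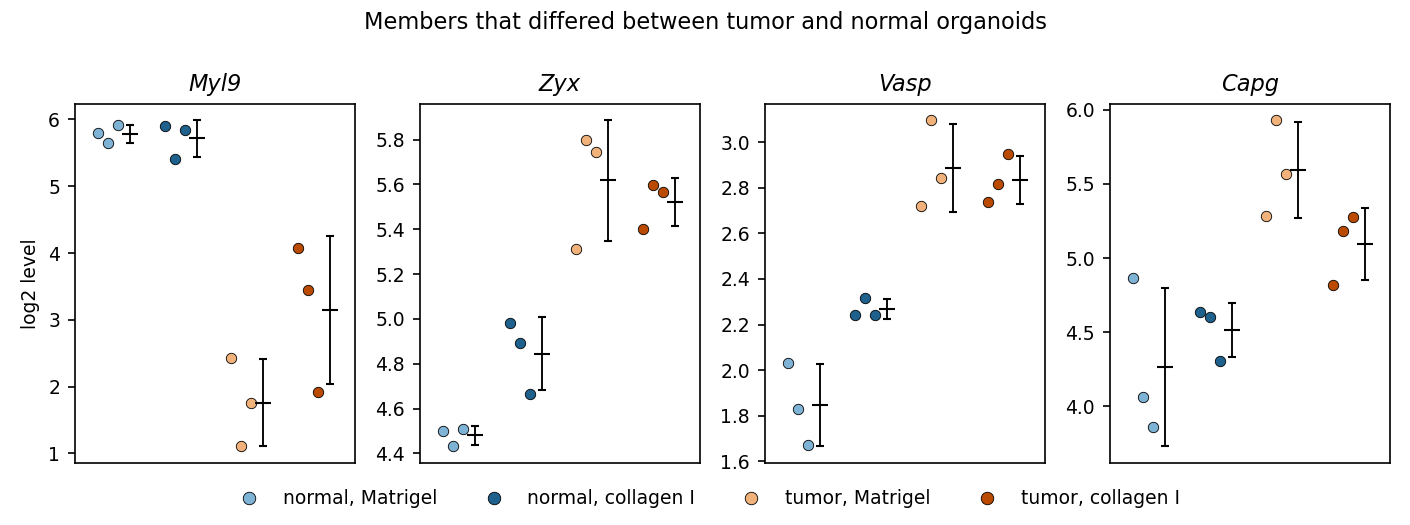
Log2 levels (vertical axes, a separate scale for each gene) of Myl9, Zyx, Vasp and Capg; points are the 3 mice of each group and the bar beside them is the mean ± SD. All 6 tumor arrays of Myl9 lie below the normal arrays, at 1.11 to 4.07, and all 6 tumor arrays of Zyx and Vasp lie above theirs.

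Among focal adhesion scaffolds, Zyx was the member called higher in tumor organoids in both gels. Zyx (zyxin, which carries Ena/VASP proteins to adhesions and strained filaments) had levels of 4.50, 4.43 and 4.51 in normal Matrigel, 4.98, 4.89 and 4.67 in normal collagen I, 5.31, 5.80 and 5.75 in tumor Matrigel and 5.40, 5.60 and 5.57 in tumor collagen I. Every tumor array lay above every normal array. The difference was 1.14 ± 0.17 (SE) in Matrigel (2.20-fold, adjusted p = 5.45e-04, limma), called under all 13 alternatives, and 0.68 ± 0.17 (SE) in collagen I (adjusted p = 0.0353), which passed under 7 of 13 alternatives and with 5 of the 12 arrays left out, and was 0.46 (adjusted p = 0.108) under quantile normalization. Without normal collagen I mouse C the call was lost (0.59, adjusted p = 0.157); it was also lost without normal Matrigel mouse B or D, normal collagen I mouse A or B, or tumor collagen I mouse B or C, at 0.64 to 0.74.

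Pxn (paxillin, an adhesion adaptor) had levels of 1.55, 1.23 and 1.12 in normal Matrigel, 1.32, 1.63 and 1.43 in normal collagen I, 1.66, 2.33 and 2.18 in tumor Matrigel and 1.46, 1.69 and 1.71 in tumor collagen I. The tumor Matrigel arrays lay above all 6 normal arrays, by a narrow margin. Pxn was called higher there (0.75, adjusted p = 0.0115), as with its second probe (0.78, adjusted p = 0.0151). With normexp it was 0.47 and did not pass.

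The 2 proteins that link integrins to actin, talin and vinculin, moved in opposite directions between the gels in tumor organoids. Tln1 had levels of 2.58, 2.37 and 2.27 in normal Matrigel, 2.17, 2.43 and 2.32 in normal collagen I, 2.73, 2.95 and 2.99 in tumor Matrigel and 1.76, 2.24 and 2.02 in tumor collagen I. Vcl had levels of 1.83, 2.02 and 2.10 in normal Matrigel, 1.68, 2.08 and 1.97 in normal collagen I, 1.48, 1.81 and 1.62 in tumor Matrigel and 2.09, 2.34 and 2.41 in tumor collagen I. The tumor Matrigel arrays of Tln1 lay above the 9 others, and its tumor collagen I arrays overlapped with normal collagen I. The tumor arrays of Vcl did not overlap between the gels, and the normal arrays overlapped with both. Tln1 was lower in collagen I, with a difference of -0.88 ± 0.17 (SE) (adjusted p = 0.00618, limma), called under 13 of 14 alternatives; 2 further probes gave differences of the same sign (-0.79, adjusted p = 0.0142, and -0.21, adjusted p = 0.544).

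Vcl was higher in collagen I by 0.65 ± 0.17 (SE) (adjusted p = 0.0207), a call that was lost without tumor Matrigel mouse A (0.57, adjusted p = 0.0547) or tumor collagen I mouse C (0.58, adjusted p = 0.0590), and its dimmer probe gave 0.16. Against normal Matrigel, Tln1 was higher in tumor Matrigel (0.48, adjusted p = 0.0382), with 0.12 under quantile normalization; Vcl was -0.35 and was called lower under that scaling (-0.60).

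Ezrin, radixin and moesin tie actin filaments to membrane proteins, and relative to the 75th percentile radixin was lower and the other 2 higher in tumor Matrigel. Ezr had levels of 5.20, 5.22 and 5.41 in normal Matrigel, 5.64, 5.49 and 5.28 in normal collagen I, 6.17, 6.15 and 6.12 in tumor Matrigel and 5.60, 5.71 and 5.83 in tumor collagen I. Msn had levels of -0.20, -0.13 and -0.34 in normal Matrigel, -0.14, 0.09 and -0.07 in normal collagen I, 0.49, 0.30 and 0.31 in tumor Matrigel and 0.09, 0.28 and 0.95 in tumor collagen I. Rdx had levels of 1.54, 1.82 and 1.75 in normal Matrigel, 1.70, 1.65 and 1.67 in normal collagen I, 0.91, 0.70 and 0.85 in tumor Matrigel and 1.62, 1.05 and 1.36 in tumor collagen I. In tumor Matrigel the Ezr arrays lay above and the Rdx arrays below all 9 others, and the Msn arrays lay above the 6 normal arrays.

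Tumor minus normal in Matrigel was -0.88 for Rdx (adjusted p = 0.00208, limma), called under all 13 alternatives and at -0.91 (adjusted p = 0.00927) on its second probe. For Ezr it was 0.87 (adjusted p = 0.00115), with 0.17 under quantile normalization, which did not pass; between the gels in tumor organoids Ezr was -0.43 (adjusted p = 0.0569, and 0.0334 with mouse as a random block). For Msn it was 0.59 (adjusted p = 0.0388), with 0.92 and 0.21 on 2 further probes, and it passed with 3 of the 12 arrays left out. Rdx was also higher in collagen I within tumor organoids (0.52, adjusted p = 0.0456), but not on its second probe (0.18, adjusted p = 0.597), with the mean of its probes (0.35, adjusted p = 0.162) or with mouse as a fixed block (adjusted p = 0.0907). It passed with 2 of the 12 arrays left out, and its values were 0.38 without tumor collagen I mouse A, 0.46 without tumor Matrigel mouse B and 0.51 to 0.57 without the others that ended the call.

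**Figure D4:**
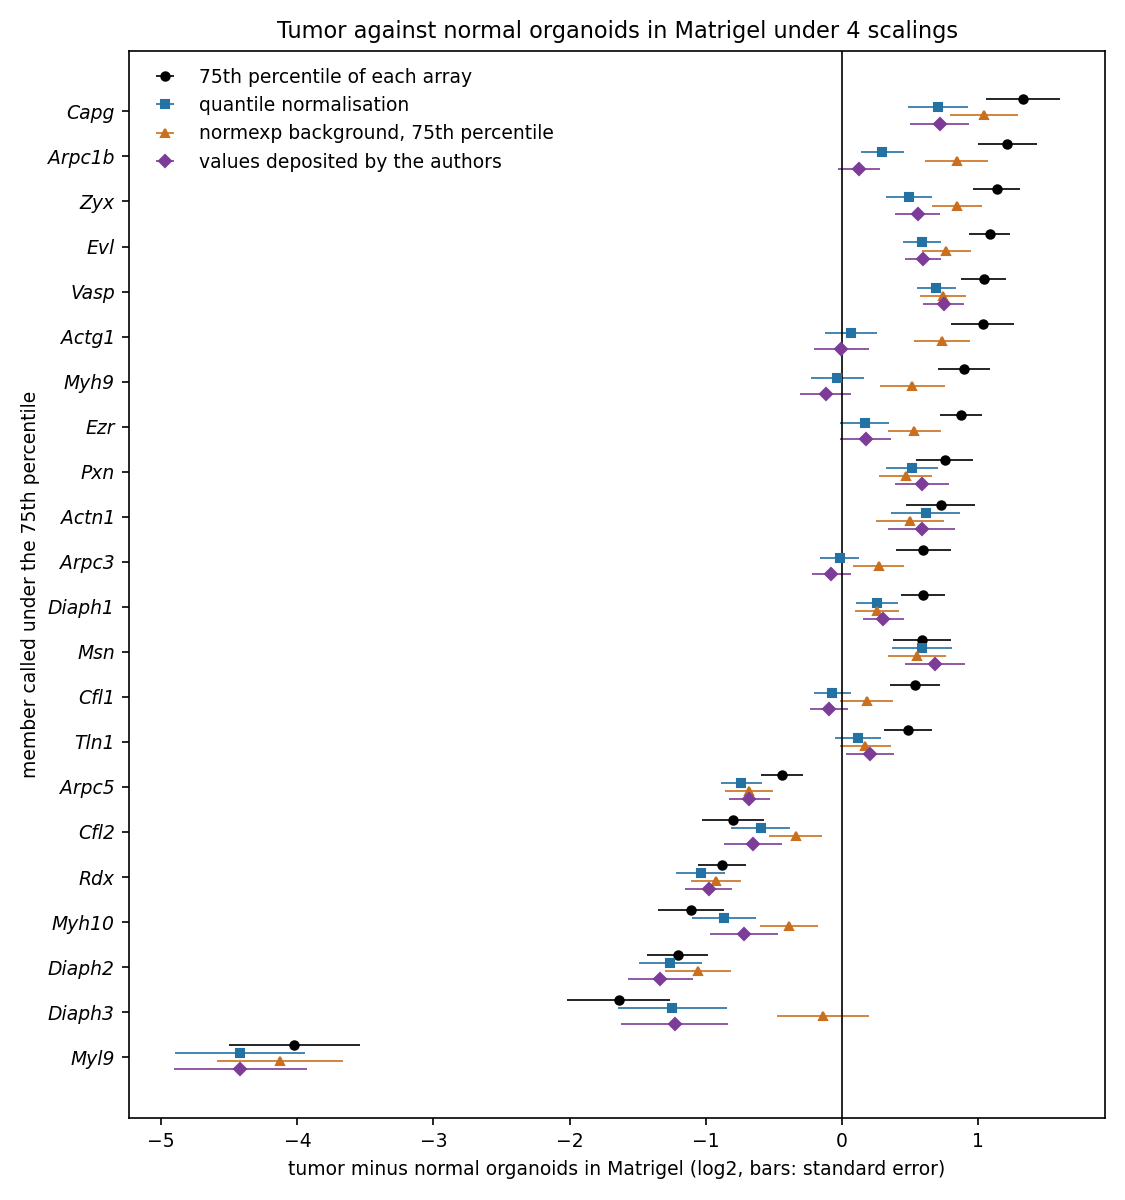
Tumor minus normal organoids in Matrigel (horizontal axis, log2, bars are standard errors) for the 22 members called under the 75th percentile, with the same probe under 3 other treatments of the signals. Capg, Zyx, Evl and Vasp stay above 0 and Myl9, Diaph2 and Rdx below 0 in all 4, whereas Arpc3, Cfl1 and Myh9 lie below 0 under quantile normalization and in the authors' values.

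The 7 members called between tumor and normal organoids in Matrigel under all 13 alternatives were Capg, Evl, Vasp and Zyx, higher, and Diaph2, Myl9 and Rdx, lower; each was also called with any 1 array left out. The other 15 were lost under at least 1 alternative. With single arrays left out, 7 of them lost the call: Cfl2 without tumor Matrigel mouse B (-0.58, adjusted p = 0.0516, limma), Arpc3 without that mouse or normal Matrigel mouse B or D (0.40 to 0.63), and Cfl1 without any of these or tumor Matrigel mouse A (0.43 to 0.52). Actn1 was lost without normal Matrigel mouse B or D or any tumor Matrigel mouse (0.53 to 0.80), Arpc5 without normal Matrigel mouse B or D, normal collagen I mouse B or tumor Matrigel mouse A or C (-0.45 to -0.34), and Tln1 without normal Matrigel mouse B or D, any normal collagen I mouse or tumor Matrigel mouse B or C (0.42 to 0.48). Msn was lost without any mouse but those of tumor collagen I (0.53 to 0.64). Actr2 was gained without tumor Matrigel mouse A (-0.63) and Wasl without normal Matrigel mouse A (0.53).

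Leaving out 1 array also added calls in other comparisons, beside the losses of Diaph2, Rdx, Vcl and Zyx given above. Between the gels in normal organoids no call was added. Between the gels in tumor organoids, Actr3 (0.58) and Arpc1b (-0.74) were gained without tumor Matrigel mouse C, Diaph3 (0.88) and Myh10 (0.91) without tumor collagen I mouse C, and Pxn (-0.64) and Myh10 (0.87) without tumor Matrigel mouse A. Between the tissues in collagen I, Fscn1 (1.54), Actn1 (0.91) and Tpm4 (0.64) were gained without tumor collagen I mouse A, and Vasp (0.57) without tumor Matrigel mouse B. The comparison of the gels in tumor organoids and the comparison of the tissues in Matrigel share the tumor Matrigel arrays, so the values of members called in both are given side by side and not as an overlap: Arpc5 (1.04 and -0.44), Cfl2 (1.00 and -0.80), Diaph2 (0.79 and -1.21), Rdx (0.52 and -0.88), Evl (-0.68 and 1.08) and Tln1 (-0.88 and 0.48).

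Whether the gel response differed between tumor and normal organoids was tested as the difference of the 2 gel effects. No member passed (0 of 42, beside 2.67% of all genes, 1.34% positive and 1.33% negative). Arpc5 came nearest (0.92 ± 0.21 (SE), adjusted p = 0.0504), followed by Actr2 (0.98, adjusted p = 0.077). With mouse as a random block, which uses the pairing of the gels within a mouse, 3 passed: Actr2 (0.97, adjusted p = 0.0485), Arpc5 (0.90, adjusted p = 0.0272) and Evl (-0.68, adjusted p = 0.0494); with mouse as a fixed block none did. Without normal Matrigel mouse A, Actr2 (1.08) and Arpc5 (1.01) passed, and without tumor Matrigel mouse A, Actr2 (1.18) did. The calls of Actr2, Arpc5 and the other members in tumor organoids, beside none in normal organoids, are therefore not shown to differ between the tissues under the main analysis.

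The wider set of actin regulators held 126 named genes in 7 lists, of which 118 were tested. None was called between the gels in normal organoids. In tumor organoids 17 were higher and 11 lower in collagen I, which is 23.7% against 27.9% of all genes (15.7% higher and 12.2% lower). Tumor against normal organoids gave 39 higher and 25 lower in Matrigel (54.2% against 51.8%) and 9 higher and 6 lower in collagen I (12.7% against 8.66%). The difference of the gel effects gave 2 higher and 2 lower (3.39% against 2.67%).

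Among WAVE complex and Arp2/3 regulators (14 tested), the WAVE subunit Nckap1 was higher in collagen I in tumor organoids (1.06), lower in tumor than in normal Matrigel (-1.74) and passed the test of the difference (1.39, adjusted p = 0.0445, limma), though normexp gave 0.22 between the gels. Gmfb, which takes branches apart, was lower in tumor Matrigel (-1.38), and Wipf1, the partner of WASP, lower in collagen I (-1.08).

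Monomer binding, capping and turnover genes (17 tested) gave 5 higher and 2 lower in collagen I in tumor organoids (15.7% and 12.2% of all genes). Tmsb4x, the main buffer of actin monomers, was higher (1.28) and Ssh1, the phosphatase that activates cofilin, lower (-1.72). Ssh1 was higher in tumor than in normal Matrigel (2.67), as was Vil1 (1.61, and 2.07 in collagen I, where 2 of 3 normal arrays were well above background), and Ssh1 (-1.88) and the capping subunit Capza1 (1.32) passed the test of the difference. Myosin chains and regulators (21 tested) gave 4 higher and none lower between the gels in tumor organoids. All genes gave 15.7% higher and 12.2% lower there. The 4 included the myosin phosphatase subunit Ppp1cb (0.72) and Myl12a (0.54). The light chain kinase Mylk was lower in tumor organoids (-4.13 in Matrigel and -4.05 in collagen I), Tagln2 was higher in Matrigel (1.58) and Myo1c in collagen I (0.74).

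Adhesion scaffolds and kinases (23 tested) held the widest differences of these lists: Tgfb1i1, a paxillin relative, was lower in tumor organoids in Matrigel (-4.23) and in collagen I (-3.84), as was Nexn, a filament-binding protein of contractile cells (-3.91 and -2.24). Nexn was higher (1.80) and Lims2 lower (-1.63) in collagen I in tumor organoids; with normexp the Nexn value was 0.02. Of the other crosslinkers (13 tested), Espn was higher in tumor organoids in Matrigel (3.86) and in collagen I (2.72) and lower in collagen I within tumor organoids (-2.14), Plec was lower in collagen I (-1.23) and in the difference (-1.97), and Flnc (1.60, Matrigel) and Lcp1 (1.33, collagen I) were higher in tumor organoids. Of the other formins (11 tested), Fmnl3 (-1.22) and Inf2 (-1.16) were lower in collagen I in tumor organoids; Inf2 was higher in tumor Matrigel (1.81), Spire2 higher in tumor collagen I (1.06), and Daam2, not well above background on any tumor Matrigel array, at least 1.07-fold lower there.

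Markers of other cell types differed between tumor and normal organoids beside these genes. All 8 fibroblast genes were lower in tumor Matrigel and 6 in tumor collagen I (brightest Col1a2 and Col1a1), with summed levels of 4.28 to 6.99, 4.96 to 6.23, 2.13 to 2.50 and 2.58 to 3.44 in normal Matrigel, normal collagen I, tumor Matrigel and tumor collagen I. Of 6 endothelial genes, 5 were lower in both gels (brightest Emcn and Eng), with sums of 2.69 to 3.07, 1.82 to 2.76, -1.33 to -0.74 and -2.31 to -1.65. Leukocyte genes (10; brightest Cd14 and Lyz2) summed to 5.19 to 5.83, 6.52 to 6.71, 5.49 to 6.08 and 4.99 to 6.10, with Ptprc, Laptm5 and Cd79b not well above background on any tumor Matrigel array; 1 was higher and 2 lower in tumor Matrigel, and 4 lower in tumor collagen I. Adipocyte genes (4 tested; brightest Fabp4 and Lpl) summed to 4.18 to 5.90, 3.52 to 4.45, 1.24 to 1.92 and 0.09 to 1.82, with 2 lower in tumor Matrigel and 1 in tumor collagen I. The luminal list (8; brightest Krt18 and Krt8) summed to 9.32 to 9.80, 9.26 to 9.49, 10.11 to 10.67 and 9.36 to 9.70, and 5 of its genes were higher in tumor Matrigel. The luminal markers were present in all groups; the part of cell composition in the members' differences was not tested.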

How the data were processed

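The authors deposited scanner output of 14 arrays for 13 samples, per the file headers from Agilent Feature Extraction 9.5 (the submitters' processing notes name version 9.1), with a processed intensity for each spot; a second table holds the authors' log2 values. Intensities here were log2-transformed and each array's 75th percentile was subtracted; control and outlier spots were left out, and spots of a probe averaged. Of the 14 arrays, 2 from an earlier batch repeat normal Matrigel mice A and B and entered only an alternative, which leaves 12. Probes were kept (26597) where all arrays of some group read well above background, and the brightest probe stood for each of 18266 genes; 55.7% of the 41174 probes were named through RefSeq and the others as in the files. The 4 groups were fitted together in limma 3.58.1 (R 4.3.3, 8 residual degrees of freedom), with Benjamini-Hochberg adjustment and a threshold of 0.05. With 3 arrays a group, their number limits the precision.

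Each array is a different mouse within its group, and both gels of a mouse share a letter in the labels. The main tests of the gels and of their difference did not use this pairing. Mouse entered only as an alternative. Deviations from the group means correlated between a mouse's gels at 0.24 (A) and -0.24 (B) in normal tissue, and at -0.06 (A), 0.32 (B) and 0.42 (C) in tumors. Alternatives covered normalization, background, dim probes, probe choice, flagged spots, batch, mouse and slide blocks, variance options and leaving out each array. Members with a call have every array's value, and up to 8 for each comparison with the largest change have full statistics; of those called nowhere, the brightest of each role is named. Up to 2 called genes for each list of further actin regulators and comparison, and the 2 brightest of each marker list, are named, and other genes named were chosen after their values were seen. The genes of 1 of the 7 regulator lists are counted in the totals and otherwise not reported here. The members and lists were chosen with earlier results of these data known. On data simulated for the comparison of the gels in tumor organoids (18266 genes), 81 of 100 genes changed 4-fold and 23 of 100 changed 2-fold were recovered, with 9 false calls.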

Additional observations from a re-analysis of the deposited data

How the results depend on the processing

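No member was called between the gels in normal organoids under any alternative. The 9 members called between the gels in tumor organoids became 4 with normexp background correction, 4 with slide as a fixed block and 3 in a fit of only the groups compared, and 7 to 10 with 1 array left out. With mouse as a replicate block they were 13 (random) and 7 (fixed). The 22 called between the tissues in Matrigel became 16 to 22 with 1 array left out. The 2 called in collagen I became 1, Myl9, under quantile normalization, normexp, the authors' values, no filter on dim probes, slide as a fixed block and only the groups compared, 4 with trend and robust variances, and 1 to 5 with 1 array left out. For the difference of the gel effects, 0 became 1 under quantile normalization and with probes above background on all arrays, 4 with both batches averaged, 3 with mouse as a random replicate block, 3 with slide as a random block, 2 with trend and robust variances, and 0 to 2 with 1 array left out.

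Between the tissues in Matrigel, 4 called members changed sign: Actg1 in the authors' values (-0.00599), and Arpc3 (-0.0175 and -0.0781), Cfl1 (-0.0692 and -0.10) and Myh9 (-0.0350 and -0.12) under quantile normalization and in the authors' values. Arpc5 was the member nearest to the threshold in the difference of the gel effects, at 1.09 (adjusted p = 0.0399) under quantile normalization. The median of all genes under normexp was -0.33 between the gels in tumor organoids, 0.45 between the tissues in Matrigel, 0.16 in collagen I and -0.29 for the difference, and the share of calls that were higher in tumor Matrigel was 77.2%. The cause was not tested.

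Between the tissues in Matrigel, normexp moved Diaph3, the dimmest member (mean level -2.82), from -1.64 to -0.14. With 3 mice a group, 2-fold changes were mostly missed on simulated data. That simulation changed 100 genes 4-fold and 100 genes 2-fold, whereas 5097 of 18266 genes were called between the gels in tumor organoids. The threshold after adjustment depends on how many genes change. The recovery on simulated data therefore does not measure how many 2-fold changes were missed in the real comparison.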

Other observations

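Cttn (cortactin, which stabilises Arp2/3 branches) was called in no comparison, yet it was the member that differed most between the repeat arrays of the earlier batch and the arrays used, for both normal Matrigel mice A and B (by 1.59 in log2 for mouse A). The median of the 42 members was 0.33 for mouse A and 0.27 for mouse B on the same measure, the absolute difference of levels, and 0.42 and 0.28 for all genes. The third, dimmest probe of Enah gave 2.11 ± 0.39 (SE) between collagen I and Matrigel in tumor organoids (adjusted p = 0.00460, limma). With normexp background correction this was -0.06, and the brightest Enah probe gave 0.24. In normal organoids the dimmest probe gave 1.66 ± 0.39 (SE) between the gels, which did not pass (adjusted p = 0.156, limma).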
